A study of Homo sapiens with 6 samples.

Results

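The genes described here build and load the autophagosome, and all 40 were found by symbol among the 17177 genes of the deposited expression table. NCI-H660 is an established human cell line of neuroendocrine prostate cancer, labelled wild type (WT) and grown as 1 line in culture. Its cells received either pyrvinium pamoate (PP), an anthelmintic drug that the study used against the RNA-binding protein ELAVL3, or PBS as the control, and RNA was taken on day 3. The labels give 3 libraries per treatment, called PBS 1 to 3 and PP 1 to 3 below, while the methods of the study speak of duplicates and a figure legend of 3 independent samples. The concentration of PP in this experiment was not given in the sources used here, and nothing in the labels ties a library to its own culture, so the p-values measure the spread between these libraries.

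Autophagy encloses cytoplasm, damaged organelles or protein aggregates in a double membrane and delivers them to the lysosome. A kinase complex around ULK1 starts the process, a lipid kinase complex around PIK3C3 marks the membrane, and ATG9, ATG2 and WIPI proteins supply and recognise lipid. Enzymes related to the ubiquitin system then attach small ATG8 proteins (the LC3 and GABARAP families) to the membrane, and cargo receptors bind both ATG8 proteins and the material to be degraded. Transcripts of these genes are known to respond to stress factors such as TFEB, FOXO3, ATF4 and NRF2. Levels of messenger RNA do not measure the flow of material through the pathway, and no such flow was measured here.

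Expression was given as FPKM, a read density corrected for gene length and library depth, and whole counts recovered from these values came to between 29064253 and 32481171 per library. All 8 neuroendocrine markers examined averaged an FPKM of 1 or more, while *KLK2* and *KLK3* were not analysed here. Summed over the neuroendocrine markers the FPKM was 792 to 800.3 with PBS and 398 to 416 with PP, with 5 markers lower and 2 higher at an adjusted p under 0.05. The part of that shift in the results below was not tested. Of 8 markers of immune, stromal and endothelial cells, 2 reached that level, and the list summed to 6.32 to 6.39 with PBS and 6.14 to 6.54 with PP. In bulk RNA, fewer cells of a kind and less RNA per cell cannot be told apart.

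The promoters of 4 members that were higher with PP are shown, so that their letters can be set beside their changes. These are RefSeq windows of 300 bases on GRCh38.p14, from 250 bases before the annotated start to 50 bases after it. The 4 genes are *WIPI1* and *MAP1LC3B*, the members with the largest rise, and *GABARAPL1* and *ATG3*, whose windows hold a match. The windows lie at chr17:68457447-68457746, minus strand (*WIPI1*), chr16:87392086-87392385, plus strand (*MAP1LC3B*), chr12:10212627-10212926, plus strand (*GABARAPL1*) and chr3:112561913-112562212, minus strand (*ATG3*). Capitals mark a match to 1 of 5 motifs that were searched on both strands.
WIPI1: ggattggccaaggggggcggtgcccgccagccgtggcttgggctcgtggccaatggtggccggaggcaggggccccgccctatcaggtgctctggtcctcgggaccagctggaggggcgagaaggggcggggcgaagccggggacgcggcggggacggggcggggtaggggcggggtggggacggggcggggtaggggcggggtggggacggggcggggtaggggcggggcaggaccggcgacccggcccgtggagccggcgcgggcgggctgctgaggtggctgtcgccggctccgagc
MAP1LC3B: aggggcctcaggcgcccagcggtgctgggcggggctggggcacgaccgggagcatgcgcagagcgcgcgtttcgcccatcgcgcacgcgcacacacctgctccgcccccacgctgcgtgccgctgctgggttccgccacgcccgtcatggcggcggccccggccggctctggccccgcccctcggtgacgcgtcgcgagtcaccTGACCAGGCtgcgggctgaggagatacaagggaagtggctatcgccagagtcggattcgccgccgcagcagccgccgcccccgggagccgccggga
GABARAPL1: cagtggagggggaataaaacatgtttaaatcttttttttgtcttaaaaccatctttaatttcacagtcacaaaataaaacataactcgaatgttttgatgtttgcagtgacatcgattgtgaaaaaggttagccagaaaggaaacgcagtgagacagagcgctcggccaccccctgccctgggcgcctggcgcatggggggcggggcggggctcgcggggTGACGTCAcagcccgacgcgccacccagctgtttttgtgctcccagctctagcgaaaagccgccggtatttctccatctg
ATG3: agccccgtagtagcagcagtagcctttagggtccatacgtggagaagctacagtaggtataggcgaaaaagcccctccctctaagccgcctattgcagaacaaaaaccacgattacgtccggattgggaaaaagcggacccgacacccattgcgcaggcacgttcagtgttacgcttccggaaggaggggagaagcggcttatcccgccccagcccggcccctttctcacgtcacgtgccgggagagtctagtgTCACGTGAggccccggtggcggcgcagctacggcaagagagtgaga

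The capitals of *MAP1LC3B* mark the antioxidant response core TGACNNNGC, which begins 46 bases before the start. Those of *GABARAPL1* mark the cAMP response element TGACGTCA, 30 bases before the start, and those of *ATG3* the CLEAR core TCACGTGA that TFEB and its relatives recognise, from position 5 after the start. *WIPI1* held none of the 5 motifs in this window. RefSeq windows were found for 33 of the 40 members, 41 windows in all. The CLEAR core was in 1 of these 41 and in 0.983% of all 34796 windows, and TGACGTCA was in 1 and in 1.84%. The antioxidant core was in 3 (*ATG101*, *CALCOCO2* and *MAP1LC3B*) and in 13.3% of all windows, and the FOXO core GTAAACA was in 1 (*CALCOCO2*) and in 3.42%. The composite site of ATF4 and C/EBP factors, TGATGNAA, was in none of the 41 and in 3.63% of all windows. A match describes the letters and is not a measured binding site.

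To ask how the autophagy genes changed with PP, PP was compared with PBS on the log2(FPKM + 1) scale with limma, a linear model fitted to every gene, and all fold changes below are on this scale, which understates changes of low genes. The fit took in the 11726 genes whose FPKM averaged 1 or more across the 6 libraries, which kept 39 of the 40 members and left out *ATG10*. At a Benjamini-Hochberg adjusted p under 0.05, 20 of the 39 members were higher with PP, 4 were lower and 15 were not called. Most genes of these cells moved at this threshold: 38.1% of all genes tested were higher and 34.4% were lower, 72.5% together. The members held a larger percentage of higher genes (51.3%) and a smaller percentage of lower genes (10.3%) than the whole table, and this difference was not tested because the members were chosen with results of these data known. Their median log2 fold change was 0.16, beside 0.022 over all genes. All 3 PP libraries lay above all 3 PBS libraries in 22 members (39.5% of all genes tested) and below them in 4 (35.5%).

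The changes were small for most members. A stricter cutoff was also applied, an unadjusted p under 0.001 together with a log2 fold change of more than 1 in size. *WIPI1* was the 1 member that passed it upwards, as did 2.24% of all genes tested, and no member passed it downwards, as 2.93% of all genes did. A log2 fold change beyond 0.5 in size was found in 4 of the 39 members and in 2790 of all 11726 genes. The 4 were *WIPI1*, *MAP1LC3B*, *SQSTM1* and, downwards, *MAP1LC3A*.

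**Figure D1:**
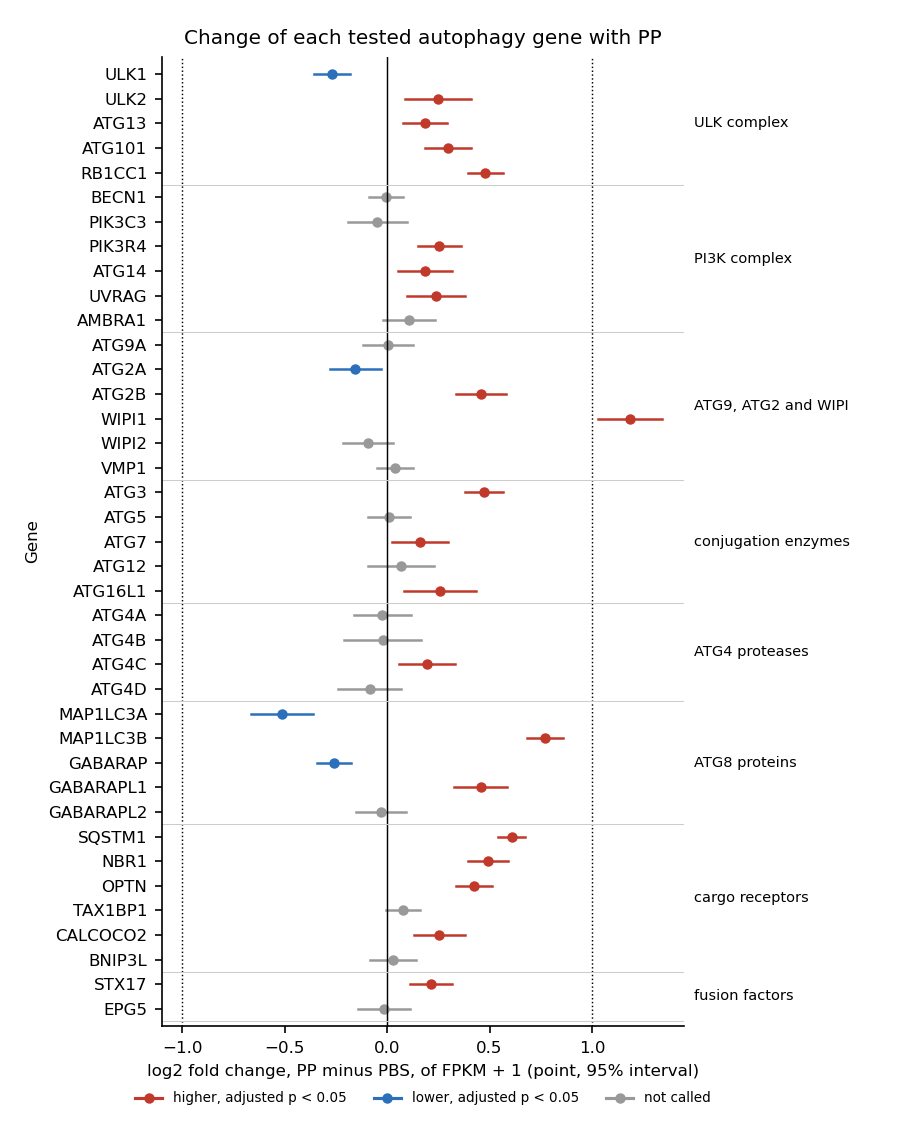
Points show the log2 fold change of FPKM + 1, PP minus PBS, for the 39 tested autophagy genes by role, with the 95% interval from limma, and dotted lines mark 1 and -1. *WIPI1* at 1.19 lies farthest to the right and *MAP1LC3A* at -0.51 farthest to the left, and 20 points are coloured as higher and 4 as lower.

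All 5 genes of the ULK complex, which starts autophagy, were called, 4 higher and 1 lower. Over all genes tested, 38.1% were higher and 34.4% lower, 72.5% together. *RB1CC1*, the large scaffold protein (FIP200) on which the complex assembles, had the largest rise of the group. Its FPKM was 23.5, 22.2 and 23.0 in PBS 1, 2 and 3 and 32.7, 31.7 and 32.5 in PP 1, 2 and 3, so every PP library stood above every PBS library (log2 fold change 0.48, standard error 0.039, adjusted p = 1.68e-06). *ULK1*, the kinase itself, moved the other way. It was at 18.8, 18.7 and 19.1 with PBS and 15.4, 15.6 and 15.4 with PP, so that its mean fell by 17.96% without overlap between groups (log2 fold change -0.27, standard error 0.039, adjusted p = 1.2e-04). Its relative *ULK2* was expressed at a lower level and rose, from 2.39 ± 0.270 (SD, n = 3) to 3.01 ± 0.0532 (SD, n = 3), with a log2 fold change of 0.25 (adjusted p = 0.00998). The regulatory subunits *ATG13* and *ATG101*, which bind each other and link the kinase to the scaffold, were higher by 0.19 (adjusted p = 0.00585) and 0.30 (adjusted p = 3.55e-04). Exons of *ATG13* share 329 bases with *HARBI1* on the opposite strand, at a mean FPKM of 3.33 and higher by 0.57 (adjusted p = 3.6e-05).

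The ratio of *ULK1* to *ULK2* within a library does not depend on the scaling between libraries, and it shows the change of 1 gene relative to the other, not the direction of either. *ULK1* was 8.97, 7.65 and 7.26 times *ULK2* in FPKM in the PBS libraries and 5.01, 5.22 and 5.16 times in the PP libraries, which do not overlap. The log2 ratio fell by 0.63 on average (exact two-sided permutation test, p = 0.1, the smallest that 3 libraries against 3 can give, and 0.114 after Benjamini-Hochberg adjustment over the 8 pairs of members compared in this way).

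In the lipid kinase (PI3K) complex, 3 of 6 genes were higher, none was lower and 3 were not called. Over all genes tested, 72.5% were called and 38.1% were higher. *PIK3R4*, the VPS15 subunit that anchors the kinase, had 11.3, 11.0 and 10.5 FPKM with PBS and 13.8, 12.9 and 13.1 with PP (log2 fold change 0.26, standard error 0.048, adjusted p = 7.59e-04). *UVRAG*, which belongs to an endosomal form of the complex, was higher by 0.24 (adjusted p = 0.00661), and *ATG14*, which directs the complex to forming autophagosomes, by 0.18 (adjusted p = 0.0162). The core of the complex was not called. For *BECN1*, the scaffold Beclin 1, FPKM was 25.9, 26.3 and 26.2 with PBS and 26.1, 26.5 and 25.5 with PP, and the 95% interval of the log2 difference ran from -0.087 to 0.078. For *PIK3C3*, the kinase VPS34, this interval ran from -0.19 to 0.10, and for *AMBRA1*, an activator of the complex, from -0.021 to 0.23, although its PP libraries all lay above its PBS libraries. The call of *ATG14* was lost without PBS 2 (adjusted p = 0.0649) and without PP 3 (adjusted p = 0.0606). Exons of *ATG14* share 1047 bases with *FBXO34* on the opposite strand, which had a mean FPKM of 12.9 and was higher by 0.23 (adjusted p = 0.00236).

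*WIPI1* showed the largest change of all members. The WIPI proteins recognise the lipid made by the PI3K complex, and WIPI2 recruits the conjugation machinery through ATG16L1. The FPKM of *WIPI1* (ENSG00000070540) was 1.89, 1.53 and 1.601 in PBS 1, 2 and 3 and 4.91, 5.01 and 5.33 in PP 1, 2 and 3, from 252, 193 and 215 and 648, 651 and 751 recovered counts. All PP libraries were well above all PBS libraries, and the mean FPKM was 3.04 times that with PBS (log2 fold change 1.19, standard error 0.070, adjusted p = 1.58e-07). Leaving out any 1 library gave log2 fold changes from 1.15 to 1.25, and 98.6% of all genes tested had a lower one than *WIPI1*. Exons of 17 of the 40 members overlap those of another protein-coding gene in the GENCODE annotation. Those of *WIPI1* share 829 bases with *ARSG* on the opposite strand, and *ARSG*, at a mean FPKM of 1.04, was higher with PP by 0.48 (adjusted p = 0.00097). The RNA-seq methods of the study name no kit that keeps strand, and the strand setting of the counting was not given in the sources used here. The part of such overlaps in the values was not tested.

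*WIPI2*, the more abundant relative, was not called. It had 19.9, 17.3 and 18.4 FPKM with PBS and 17.9, 17.3 and 16.6 with PP, with overlapping groups and a 95% interval of -0.22 to 0.027 for the log2 difference. It was called lower without PBS 2 (log2 fold change -0.14, adjusted p = 0.0497). The ratio of *WIPI1* to *WIPI2* was 0.0951, 0.0884 and 0.0869 in the PBS libraries and 0.274, 0.290 and 0.320 in the PP libraries, a mean log2 difference of 1.71 (exact two-sided permutation test, p = 0.1, adjusted p = 0.114 over 8 pairs). *WIPI2* thus remained the higher of the 2 genes in every library.

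The lipid transfer proteins ATG2A and ATG2B, which feed lipid into the growing membrane, also moved in opposite directions. *ATG2B* rose from 6.78 ± 0.419 to 9.68 ± 0.265 FPKM (SD, n = 3), with no overlap between groups (log2 fold change 0.46, standard error 0.055, adjusted p = 3.19e-05). *ATG2A* was 6.51, 5.78 and 6.32 with PBS and 5.38, 5.49 and 5.52 with PP (log2 fold change -0.16, standard error 0.056, adjusted p = 0.0290), and its call held in only 2 of the 6 fits that each left out 1 library: it was lost without PBS 1, PBS 3, PP 1 or PP 2, with adjusted p between 0.0598 and 0.1004. Their ratio, *ATG2A* over *ATG2B*, went from 1.03, 0.816 and 0.911 to 0.553, 0.585 and 0.557, so that *ATG2B* was the higher of the pair in every PP library (exact two-sided permutation test, p = 0.1, adjusted p = 0.114 over 8 pairs). Neither *ATG9A*, a lipid scramblase of the vesicles that seed the membrane, nor *VMP1*, a scramblase of the endoplasmic reticulum, was called, with 95% intervals of -0.12 to 0.13 and -0.047 to 0.13. In the annotation *ATG9A* shares 1833 exon bases with ENSG00000284820 on the same strand, a gene absent from the deposited expression values.

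**Figure D2:**
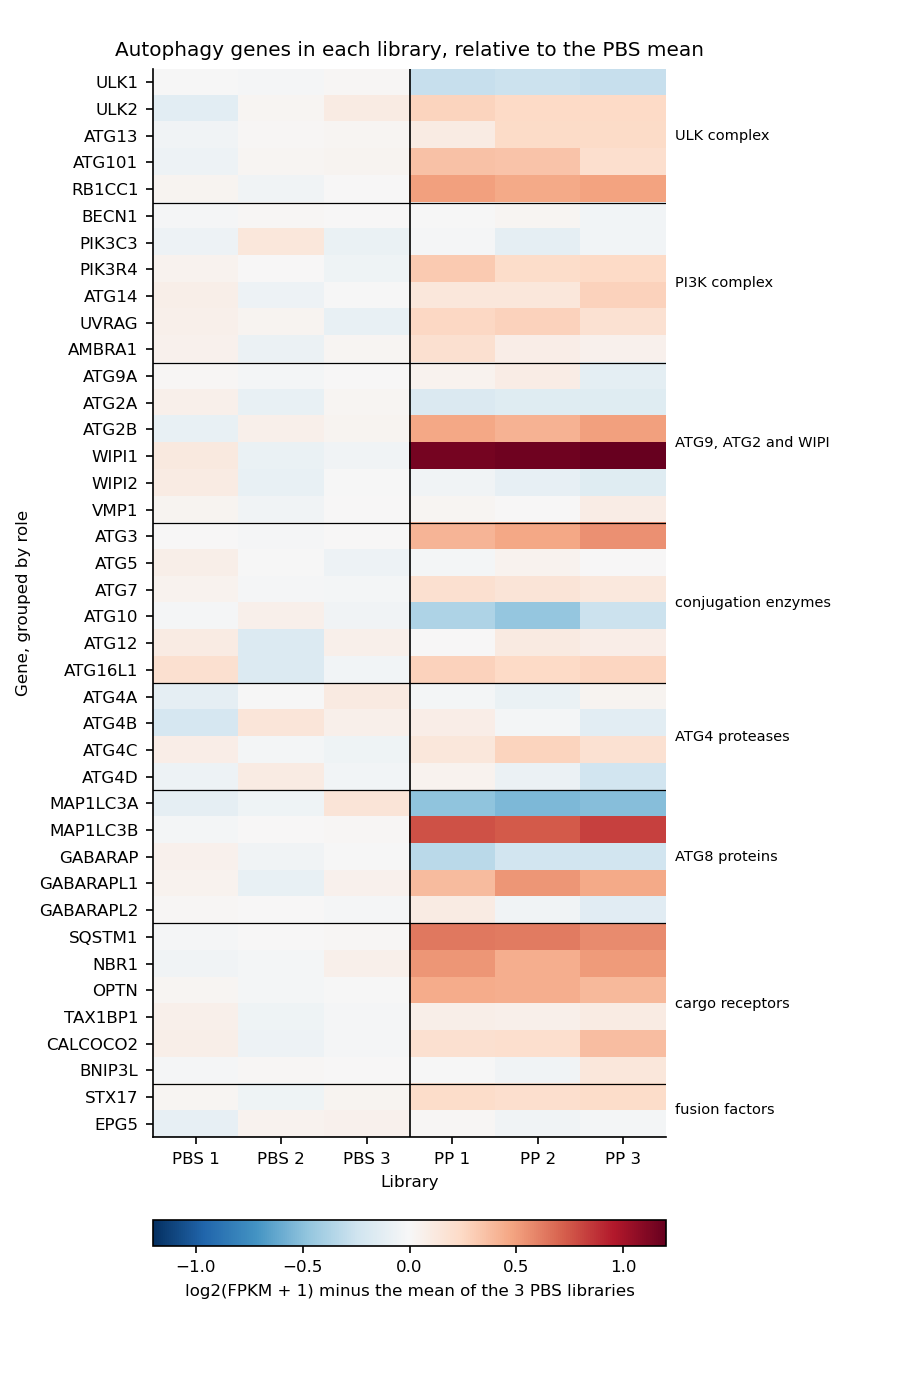
Each cell shows log2(FPKM + 1) of 1 gene in 1 library minus the mean of the 3 PBS libraries, for all 40 autophagy genes grouped by role. The row of *WIPI1* is darkest, the rows of *MAP1LC3B* and *SQSTM1* are evenly red in the 3 PP libraries, and *MAP1LC3A*, *ATG10*, *ULK1* and *GABARAP* are blue.

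Of the conjugation enzymes, 3 of the 5 tested were higher and none was lower, where 38.1% of all genes tested were higher and 34.4% lower. *ATG3* is the E2-like enzyme that transfers ATG8 proteins to lipid, and it rose most in this group, from 32.2, 31.8 and 32.2 FPKM with PBS to 42.8, 44.7 and 47.4 with PP (log2 fold change 0.47, standard error 0.043, adjusted p = 3.73e-06). Its PP libraries all exceeded its PBS libraries by more than the spread in either group. *ATG16L1*, which places the enzyme complex on the membrane, had 11.4, 8.70 and 9.66 with PBS and 12.1, 11.9 and 11.97 with PP, where PBS 1 came close to the PP range (log2 fold change 0.26, standard error 0.079, adjusted p = 0.0134). *ATG7*, the E1-like enzyme at the head of both conjugation reactions, was low and rose by 0.16 (adjusted p = 0.0381), a call lost without PBS 2, PBS 3, PP 1 or PP 2 (adjusted p between 0.0748 and 0.105). Its exons share 1597 bases with *VGLL4* on the opposite strand, at a mean FPKM of 23.7 and a log2 fold change of -0.017 (adjusted p = 0.724), while *ATG7* itself had 2.14, 2.02 and 2.01 FPKM with PBS and 2.504, 2.41 and 2.34 with PP. *ATG5* and *ATG12*, which are joined to each other, were not called, with 95% intervals of -0.095 to 0.11 and -0.094 to 0.23.

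*ATG10*, the other E2-like enzyme, which joins ATG12 to ATG5, was the member below the filter. Its FPKM was 0.865, 0.957 and 0.825 with PBS and 0.457, 0.364 and 0.571 with PP, from 212, 222 and 204 and 111, 87 and 148 recovered counts. The PP libraries all lay below the PBS libraries, with a mean 47.4% lower. In a fit over all 16909 genes above 0 in any library, limma gave -0.36 on the log2 scale (adjusted p = 0.00221), so the E2-like enzymes *ATG3* and *ATG10* differed in direction. Exons of *ATG10* share 374 bases with *RPS23* on the opposite strand, a ribosomal protein gene with a mean FPKM of 120.2.

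The ATG4 proteases trim ATG8 proteins before conjugation and release them afterwards. Of all genes tested, 72.5% were called. Only *ATG4C* was called, with 5.04, 4.60 and 4.50 FPKM in the PBS libraries and 5.28, 5.88 and 5.47 in the PP libraries, just apart from each other (log2 fold change 0.20, standard error 0.062, adjusted p = 0.0152), and this call was lost without PBS 3 (adjusted p = 0.0572) or PP 2 (adjusted p = 0.0631). The 95% intervals of the other 3 proteases all spanned 0 and were -0.16 to 0.12 for *ATG4A*, -0.21 to 0.17 for *ATG4B* and -0.24 to 0.068 for *ATG4D*. The ratio of *ATG4A* to *ATG4B* overlapped between treatments (exact two-sided permutation test, p = 1.0, log2 difference -0.0024).

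The 5 ATG8 genes, whose proteins coat the membrane, split evenly, with 2 higher, 2 lower and 1 not called. Of all genes tested, 38.1% were higher and 34.4% lower. *MAP1LC3B* encodes LC3B, the form most often used to follow autophagosomes. Its FPKM was 20.05, 20.6 and 20.7 in PBS 1, 2 and 3 and 35.5, 34.7 and 36.7 in PP 1, 2 and 3, a rise of 74.3% with a gap between the groups far wider than either group (log2 fold change 0.77, standard error 0.039, adjusted p = 5.46e-08). *MAP1LC3A*, the LC3A gene, fell by 33.0%, from 9.69, 10.2 and 11.9 to 7.23, 6.92 and 7.10 (log2 fold change -0.51, standard error 0.068, adjusted p = 6.81e-05). Both LC3 genes were thus called in opposite directions, and *MAP1LC3B* went from 2.07, 2.02 and 1.75 times *MAP1LC3A* in the PBS libraries to 4.90, 5.01 and 5.17 times in the PP libraries (exact two-sided permutation test, p = 0.1, adjusted p = 0.114 over 8 pairs). *MAP1LC3B2*, a near copy of *MAP1LC3B* from which reads may be exchanged, had 39, 34 and 32 counts with PBS and 77, 43 and 51 with PP, few beside the 1294 to 1389 and 2250 to 2585 counts of *MAP1LC3B*. Exons of *MAP1LC3B* also share 60 bases with *FBXO31* on the opposite strand, at a mean FPKM of 3.98 and higher by 0.68 (adjusted p = 4.62e-06).

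The GABARAP branch showed the same kind of split. *GABARAP* had the highest FPKM of all 40 members in the PBS libraries, at 357, 334 and 343, and was lower with PP, at 275, 294 and 293 (log2 fold change -0.26, standard error 0.037, adjusted p = 1.16e-04). *GABARAPL1*, which is known to be induced by FOXO factors, had 8.61, 7.79 and 8.67 with PBS and 11.2, 12.5 and 11.8 with PP (log2 fold change 0.46, standard error 0.058, adjusted p = 5.1e-05). The groups did not overlap in either gene. In the annotation *GABARAP* shares 691 exon bases with ENSG00000262526 on the same strand, a gene absent from the deposited expression values. The part of this overlap in the values was not tested. *GABARAPL2* (GATE-16) had 28.7, 28.6 and 28.1 with PBS and 30.4, 27.5 and 25.8 with PP, with a 95% interval of -0.15 to 0.094. The ratio of *GABARAPL1* to *GABARAP* rose by 0.76 on the log2 scale and that of *GABARAPL1* to *GABARAPL2* by 0.53, without overlap between treatments in either (exact two-sided permutation test, p = 0.1 and adjusted p = 0.114 for each).

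**Figure D3:**
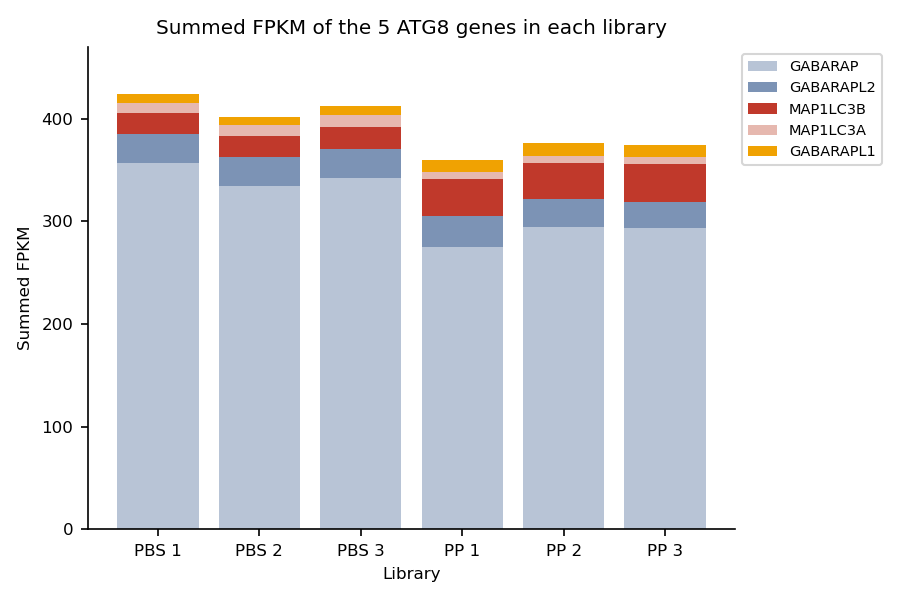
Bars show the summed FPKM of the 5 ATG8 genes in each of the 6 libraries, divided by gene. The bars are 401 to 424 high with PBS and 359 to 376 with PP, *GABARAP* fills most of each bar, and the red *MAP1LC3B* segment is wider in the 3 PP libraries.

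FPKM is scaled by gene length, so the 5 genes can be summed within a library. Over all genes, FPKM summed to 318563 to 319175 with PBS and 305365 to 309190 with PP, and the sums below are not corrected for this. The summed FPKM of the ATG8 genes was 424, 401 and 412 in the PBS libraries and 359, 376 and 375 in the PP libraries, 10.3% lower on average (exact two-sided permutation test, p = 0.1). Within this sum the percentage from *MAP1LC3B* was 4.73, 5.12 and 5.02 with PBS and 9.86, 9.23 and 9.80 with PP, and that from *GABARAPL1* went from 2.03 ± 0.0817 to 3.196 ± 0.116 (SD, n = 3). With PBS *GABARAP* made up 83.6% ± 0.553 of the sum, and with PP 77.7% ± 0.992 (both SD, n = 3). In the sum *GABARAP* remained the largest component in every library, and the range of each treatment lay apart from the other for *MAP1LC3B*, *GABARAPL1*, *MAP1LC3A* and *GABARAP*.

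Among the cargo receptors, 4 of 6 were higher and none was lower, where 38.1% of all genes tested were higher and 34.4% lower. *SQSTM1* (ENSG00000161011) encodes p62, which binds ubiquitinated cargo and is itself degraded by autophagy. Its FPKM was 286, 291 and 292 in PBS 1, 2 and 3 and 449, 447 and 429.6 in PP 1, 2 and 3, so that it was second to *GABARAP* among the members in the PBS libraries and above it in the PP libraries. The PP libraries stood 52.6% higher with a wide gap (log2 fold change 0.61, standard error 0.030, adjusted p = 4.4e-08). *NBR1*, a receptor related to p62 in domain structure, rose from 19.7, 19.96 and 21.2 to 29.7, 27.8 and 29.4, again without overlap (log2 fold change 0.49, standard error 0.045, adjusted p = 3.79e-06). *SQSTM1* was 14.5, 14.6 and 13.8 times *NBR1* with PBS and 15.2, 16.1 and 14.6 times with PP, a mean log2 difference of 0.10 beside within-group SDs of 0.045 and 0.068 (exact two-sided permutation test, p = 0.1, adjusted p = 0.114). Exons of *SQSTM1* share 105 bases with *MGAT4B* and 1582 with *MRNIP*, both on the opposite strand, and *MRNIP*, at a mean FPKM of 30.4, had a log2 fold change of 0.20 (adjusted p = 0.0376).

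*OPTN*, optineurin, a receptor for damaged mitochondria and bacteria, had 19.9, 19.2 and 19.5 FPKM with PBS and 26.9, 26.8 and 25.9 with PP, with groups far apart (log2 fold change 0.42, standard error 0.039, adjusted p = 4.47e-06). *CALCOCO2*, the receptor NDP52, was 24.7, 22.5 and 23.2 with PBS and 27.0, 27.1 and 30.6 with PP, where PP 3 stood above the other PP libraries (log2 fold change 0.25, standard error 0.056, adjusted p = 0.00213). *TAX1BP1*, which belongs to the same family as NDP52, had 55.7, 51.6 and 53.0 and 56.0, 55.9 and 57.3, and PBS 1 lay just under the PP libraries. It was not called with all libraries (adjusted p = 0.0921) and was called higher without PBS 1 (adjusted p = 0.0348). Over all libraries its 95% interval was -0.0077 to 0.16. *BNIP3L* (NIX), a receptor on the mitochondrial outer membrane, had 25.7, 26.3 and 26.1 and 26.0, 25.2 and 28.7, with an interval of -0.083 to 0.14.

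**Figure D4:**
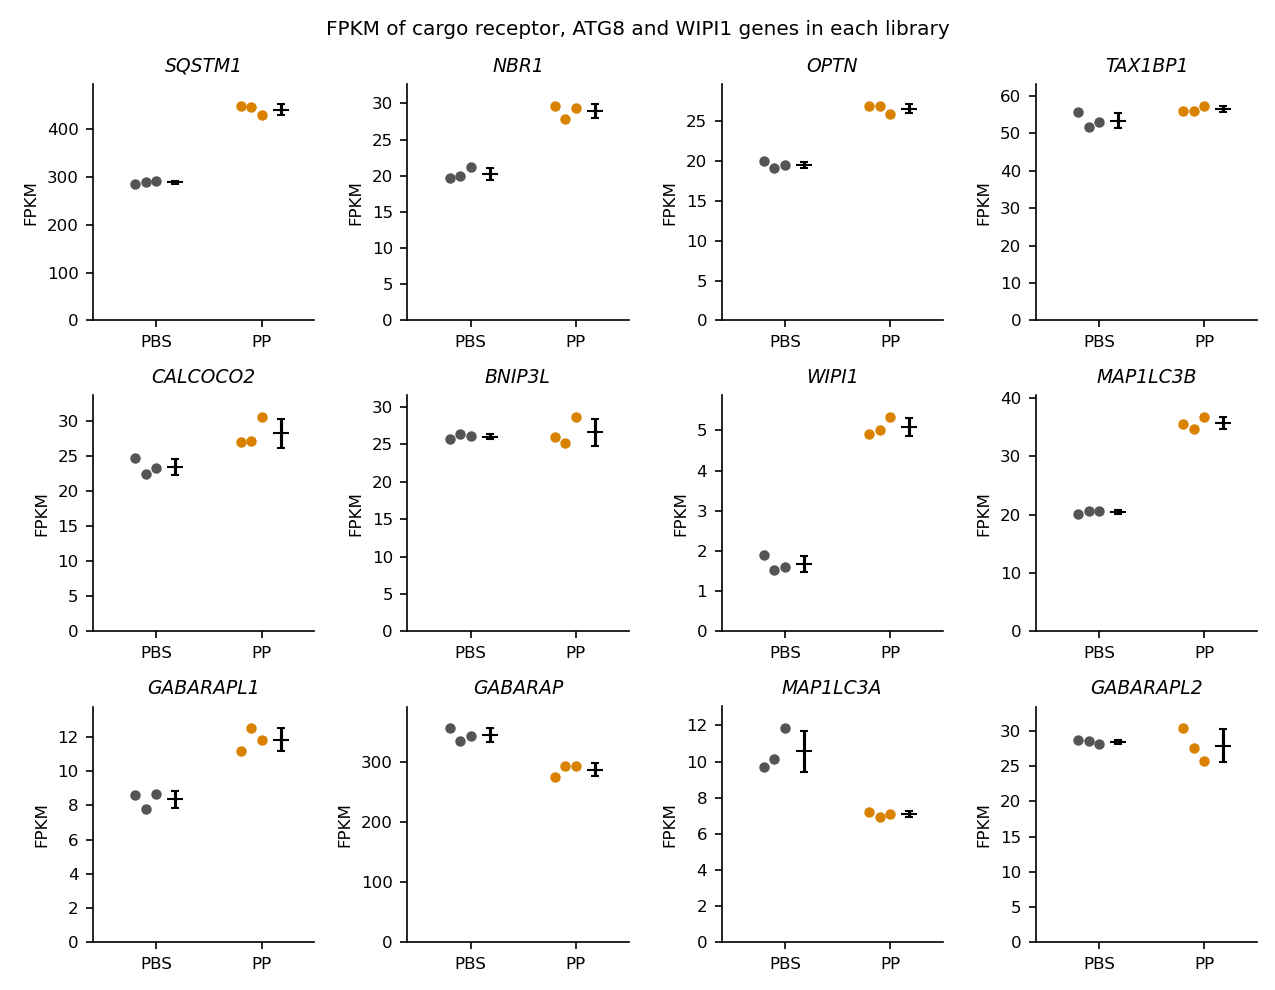
Points show FPKM in each of the 3 PBS and 3 PP libraries for the 6 cargo receptor genes, *WIPI1* and the 5 ATG8 genes, and bars beside them show the mean and SD, on axes that start at 0. PP points lie above PBS points without overlap in *SQSTM1*, *NBR1*, *OPTN*, *TAX1BP1*, *CALCOCO2*, *WIPI1*, *MAP1LC3B* and *GABARAPL1*, and below them in *GABARAP* and *MAP1LC3A*.

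Of the 2 members that act when the autophagosome meets the lysosome, *STX17*, the fusion SNARE, had 9.01, 8.54 and 9.10 FPKM with PBS and 10.5, 10.4 and 10.5 with PP, without overlap (log2 fold change 0.21, standard error 0.046, adjusted p = 0.00194). *EPG5*, a tether for the same step, had 6.99, 7.83 and 7.89 and 7.65, 7.33 and 7.44, with a 95% interval of -0.14 to 0.11 for the log2 difference.

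Further genes of the pathway that are not among the 40 were examined as a list of 53, of which 49 were tested. At an adjusted p under 0.05, 24 were higher, 10 were lower and 15 were not called, with a median log2 fold change of 0.14. Over all genes tested 38.1% were higher and 34.4% lower, beside 49.0% and 20.4% in this list, and this difference was not tested. The 4 highest were *CCPG1*, a receptor for autophagy of the endoplasmic reticulum, *NRBF2*, a subunit of the PI3K complex, the lipid phosphatase *MTMR3* and *NUFIP1*, described as a receptor for ribosomes. *CCPG1* had 28.9, 27.0 and 27.2 FPKM with PBS and 65.1, 67.6 and 72.7 with PP (log2 fold change 1.28, standard error 0.048, adjusted p = 6.28e-09), the only gene of this list past the stricter cutoff upwards. Its PP libraries were all more than double its PBS libraries. The log2 fold change was 0.64 for *NRBF2* (adjusted p = 4.31e-07), 0.63 for *MTMR3* (adjusted p = 1.43e-06) and 0.58 for *NUFIP1* (adjusted p = 9.19e-05).

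The lowest gene of this list was *TP53INP1*, a p53 target whose protein binds ATG8 proteins, with 11.8, 11.8 and 11.6 FPKM with PBS and 5.68, 5.33 and 5.07 with PP (log2 fold change -1.001, standard error 0.052, adjusted p = 6.62e-08). It passed the stricter cutoff downwards by a narrow margin. *VAMP8*, a SNARE that pairs with STX17 on the lysosomal side, had 102, 101 and 106 with PBS and 53.3, 54.2 and 52.9 with PP (log2 fold change -0.93, standard error 0.033, adjusted p = 4.71e-09). The PP libraries of *VAMP8* were all far below the PBS libraries, while of its partners *STX17* rose and *SNAP29* was not called (95% interval -0.049 to 0.16). *EI24* and *ATG16L2* followed at -0.60 (adjusted p = 3.88e-07) and -0.55 (adjusted p = 1.37e-05), and the latter fell while its relative *ATG16L1* rose. By step, 11 of 19 further receptors were higher and 3 lower, and 10 of 18 core genes were higher and 4 lower. Of 12 fusion genes, 3 were higher and 3 lower, where 38.1% of all genes tested were higher and 34.4% lower.

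Factors known to control the transcription of autophagy genes were examined as a list of 11. All 10 that were tested were called, 9 higher and 1 lower, where 38.1% of all genes tested were higher and 34.4% lower, 72.5% together, and *MITF* was below the filter at 0.339, 0.336 and 0.153 FPKM with PBS and 0.461, 0.447 and 0.451 with PP. The highest were *DDIT3* (CHOP), at 109 ± 0.343 FPKM with PBS and 415 ± 19.9 with PP (SD, n = 3, log2 fold change 1.92, adjusted p = 1.07e-10), and *NFE2L2* (NRF2), at 25.5 ± 1.32 and 66.1 ± 2.57 (SD, n = 3, log2 fold change 1.34, adjusted p = 3.8e-09). *ATF4* was higher by 0.65 (adjusted p = 6.76e-07), and *TFE3* and *TFEB*, which drive lysosomal and autophagy genes, by 0.63 (adjusted p = 1.32e-07) and 0.25 (adjusted p = 0.00242). *FOXO3*, *FOXO4* and *FOXO1* were higher by 0.49, 0.26 and 0.23 (adjusted p = 2.65e-06, 0.00149 and 0.0228). *ZKSCAN3*, known as a repressor of autophagy genes, was lower, from 4.84, 5.01 and 4.68 to 3.92, 3.70 and 4.11 FPKM (log2 fold change -0.25, standard error 0.058, adjusted p = 0.00277). The activity of these factors was not measured.

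**Figure D5:**
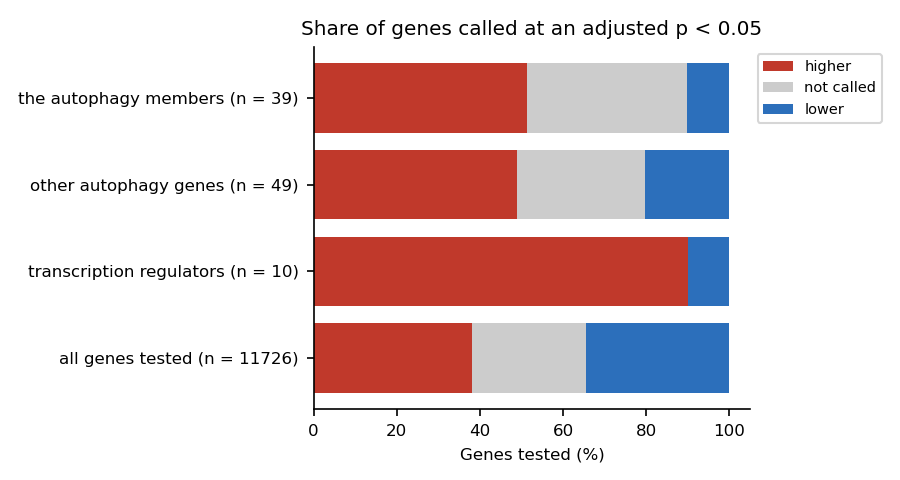
Bars show the percentage of tested genes that were higher (red), lower (blue) or not called (grey) with PP at an adjusted p under 0.05 from limma, for the 39 autophagy members, 49 other autophagy genes, 10 transcription regulators and all 11726 genes. The blue part is 10.3% in the members, 20.4% in the other autophagy genes and 34.4% over all genes.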

How the data were processed

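Gene expression of the NCI-H660 line under PBS and under PP was measured by RNA-seq in 3 libraries each, and the authors deposited FPKM for 17177 gene symbols. Their methods name hg19, Bowtie, RSEM, Cufflinks and HTSeq, the submitters' processing notes name GRCh38, fastp, HISAT2 and HTSeq, and which of these gave the table was not given in the sources used here. Low values were whole multiples of a step per gene, from which counts were recovered for all 17177 genes (each within 0.01 of a whole number).

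limma 3.58.1 in R 4.3.3 (lmFit, eBayes with an intensity trend) was fitted on log2(FPKM + 1), with Benjamini-Hochberg adjustment over the 11726 genes whose mean FPKM was 1 or more. The stricter cutoff follows the methods of the study, whose P was taken as unadjusted. Python 3.11.15, numpy 2.4.6, pandas 2.3.3 and matplotlib 3.10.9 were used for the rest. On simulated data with the same design and a dispersion of 0.002, 195 of 11720 genes were made to differ, beside 72.5% called here. There, 195 of 195 changed genes and 10 of 11525 unchanged genes were called, and 98.3% of genes were recovered exactly. Calling where most genes differ, as in these libraries, was not tested.

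The members and lists were chosen with earlier results of these data known, and the motifs and promoters shown were chosen after the values were seen. The rule for named genes took per-library values for the 5 members farthest up and the 5 farthest down among those called (4 were called down), for ATG8 and receptor genes and for members past the stricter cutoff, then 4 genes at either end of the other list and the regulators tested. Some genes on the lists are not reported here. Values of further members were added after they were seen. Exon overlaps come from GENCODE on GRCh37. Alternatives varied the pseudocount, filter, scaling, eBayes trend, replicate block and libraries, and used limma-voom on recovered counts.

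Counts of libraries under 1 treatment differed by a chi-square of 3.36 to 7.04 per degree of freedom (149 to 170.4 between treatments), so none was a duplicate of another. Same-numbered libraries correlated at -0.21, -0.014 and -0.13 in their deviations from group means, so no shared positive deviation was seen. These values cannot show whether same-numbered samples were handled together, and the labels do not say.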

Additional observations from a re-analysis of the deposited data

How the results depend on the processing

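Across the 15 alternatives, 17 of the 20 members called higher and 3 of the 4 called lower kept their call wherever they were tested. *ATG14*, *ATG7*, *ATG4C* and *ATG2A* lost theirs in some fits without 1 library, *ATG14* and *ATG7* also with upper-quartile scaling, and *ATG7* and *ATG2A* also with the replicate block. Some members had few counts, such as *ATG10* and *WIPI1*, and *WIPI1* kept its call wherever it was tested. The part of depth in these results was not tested.

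The number of members past the stricter cutoff upwards was 0 with a mean FPKM of at least 5, since that filter removes *WIPI1*. Over all genes, 397 passed it upwards with limma-voom on recovered counts, beside 263, and 531 (pseudocount 0.1) or 559 (limma-voom) passed it downwards, beside 344. The median of the members was 0.19 with a pseudocount of 0.1 and 0.19 with 0.5, 0.13 without a filter, 0.077 with a mean FPKM of at least 5, 0.15 with median-ratio factors, 0.13 with upper-quartile scaling, 0.20 with limma-voom, and 0.14 to 0.17 without 1 library, beside 0.16. The log2 change of the summed ATG8 FPKM was -0.20 with upper-quartile scaling, beside -0.16. The cause was not tested where no filter accounts for it.

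Calls were gained by *WIPI2* (lower, with upper-quartile scaling and without PBS 2) and *TAX1BP1* (higher, without PBS 1). Other members that were not called could change sign. Median-ratio factors gave -0.010 for *ATG9A* and -0.0053 for *ATG5*. Upper-quartile scaling gave -0.039 for *ATG9A*, -0.0037 for *VMP1*, -0.034 for *ATG5* and -0.015 for *BNIP3L*. Without 1 library, the ranges were -0.017 to 0.0094 for *BECN1*, -0.088 to 0.019 for *PIK3C3*, -0.037 to 0.063 for *ATG9A*, -0.023 to 0.043 for *ATG5*, -0.015 to 0.12 for *ATG12*, -0.077 to 0.032 for *ATG4A*, -0.12 to 0.049 for *ATG4B*, -0.091 to 0.024 for *GABARAPL2*, -0.025 to 0.065 for *BNIP3L* and -0.065 to 0.012 for *EPG5*. For the log2 ratio of *ATG4A* to *ATG4B* the range was -0.085 to 0.051.

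With the replicate block, 19 members were higher and 3 were lower, beside 20 and 4. Over all genes it gave 4260 higher and 3878 lower, beside 4464 and 4032.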
